A study of Mus musculus with 208 samples.

Results

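This report covers the baseline effect of perinatal morphine on nuclear RNA in the hypothalamus of adult mice, the contrast of MOR–SAL with SAL–SAL. The members are the hypothalamic libraries labelled MOR–SAL or SAL–SAL whose total count was at least 0.5 of the median total of the 51 hypothalamic libraries, which gave 23 libraries of the 208 in the series, and the genes described are the 18582 of 46403 whose mean over those 23 libraries was at least 1 CPM (counts scaled to the library's total). MOR–SAL animals were born to dams given morphine at 10 mg/kg per day through pregnancy by minipump, implanted at 8 to 12 weeks of age. From postnatal day 1 to 14 the pups were injected with morphine at 10 mg/kg per injection, 2 times a day. SAL–SAL animals and their dams, of the same ages, were given saline in its place. All were C57BL/6NTac, male and female, were raised by surrogate dams that had received no drug, and as adults were injected with saline 2 h before tissue was taken. Each library was made from about 5000 NeuN+ nuclei of 1 animal, sorted from punches of frozen hypothalamus, and the deposited values are raw read counts per gene.

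NeuN (Rbfox3) is a splicing factor of neuronal nuclei, so a sort on it enriches neurons over glia. The hypothalamus makes neuropeptides that control feeding, stress, sleep and body temperature. It lies directly under the thalamus, whose relay neurons carry a different set of transcripts, among them those of the kinase Prkcd. Morphine acts on the mu opioid receptor, encoded by Oprm1, a receptor coupled to inhibitory G proteins that lower cAMP.

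The comparison had 14 MOR–SAL libraries from 10 litters (7 female, 7 male; 3509261 to 8902128 total counts) and 9 SAL–SAL libraries from 7 litters (4 female, 5 male; 3128218 to 9052588). The depth rule removed SAL–SAL 1-1 and 4-3 (in the study's sample numbers the first is the litter and the second the animal). The study counts more litters than these first numbers give, so a litter here is the set of animals that share a first number. No litter held both exposures and none of the 17 litters contributed both sexes to the comparison, so litter is nested in exposure and in sex. Library MOR–SAL 12-1 and library MOR–SAL 15-0 are labelled female and had 33.0 and 81.0 CPM summed over 4 Y-linked genes, against 0 to 1.39 in the other 9 female and 188 to 735 in the 12 male libraries. They also had Xist, the transcript of the inactive X chromosome, at 777 and 737.7 CPM, against 763 to 1292 in the other females. Results are therefore also given without these 2 libraries where that changes a call. Gm26917, a noncoding transcript, took 7.10% to 24.9% of the counts in MOR–SAL and 9.17% to 36.8% in SAL–SAL, the largest share of any gene.

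Over 28841 genes tested in edgeR (quasi-likelihood, Benjamini-Hochberg), 361 of the described genes were called at an adjusted p under 0.05 (1.94% of 18582). Of these, 310 (1.67%) were lower and 51 (0.274%) were higher in MOR–SAL, and 2785 passed 0.05 before adjustment. The median log2FC was −1.29 over the lower genes, 0.82 over the higher genes and 0.03 over all described genes. Scaling by library size alone, in place of TMM factors, moved the median of all described genes to 0.20 and the split to 123 lower and 109 higher. With DESeq2 the split was 558 lower and 138 higher. A further 183 called genes fell below the mean of 1 CPM and are not described.

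**Figure D1:**
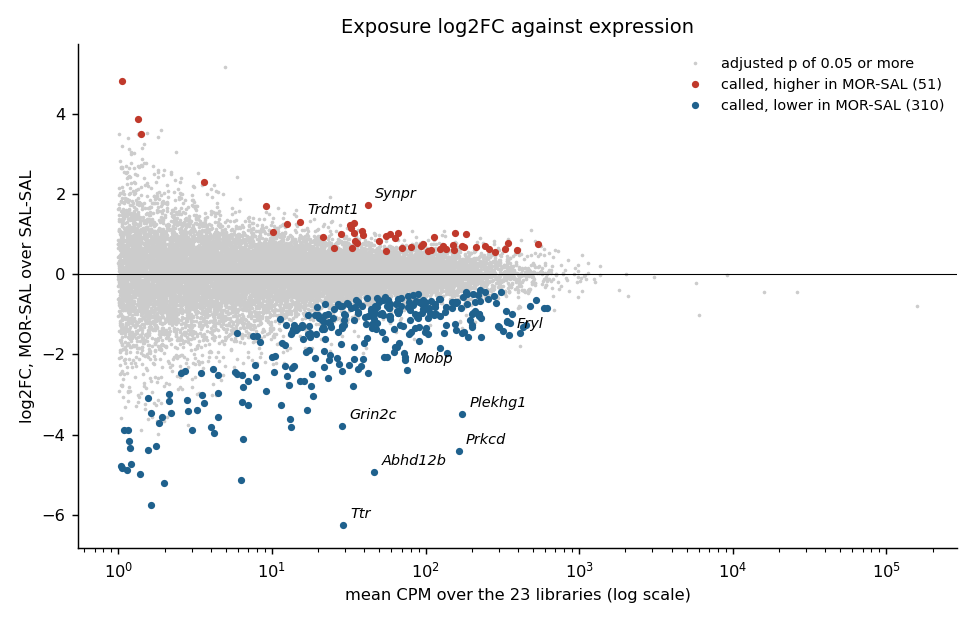
Mean CPM over the 23 libraries (x axis, log scale) against the log2FC of MOR–SAL over SAL–SAL (y axis) for the 18582 described genes, with called genes coloured by direction and a few named. The 310 lower genes reach a log2FC of −6.25 (Ttr), while most of the 51 higher genes lie below a log2FC of 2.

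The groups overlapped for every called gene but 1. Synpr, which encodes the synaptic vesicle membrane protein synaptoporin, is the only described gene (0.00538%) whose libraries did not overlap between groups. It ranged from 34.1 to 69.9 normalized CPM (CPM scaled by the TMM factors; median 52.9) in MOR–SAL and from 0 to 30.7 (median 14.5) in SAL–SAL. Every MOR–SAL library was thus above every SAL–SAL library, at a log2FC of 1.71 (SE 0.37, edgeR adjusted p = 0.00610). Without litter 10 the log2FC was 1.38 (edgeR adjusted p = 0.0308). That litter includes SAL–SAL 10-1 and 10-3. Each litter was left out with all its libraries, also those of animals injected with lipopolysaccharide. Synpr lies on the plus strand at chr14:13284780-13616340 (mm10), is protein coding, and has no exon of another gene opposite.

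Trdmt1 rose as well. It encodes a cytosine methyltransferase of tRNA and lies on the minus strand at chr2:13509014-13544668. Its values were 12.7 to 25.9 normalized CPM (median 17.8) in MOR–SAL and 2.23 to 13.2 (median 8.05) in SAL–SAL, and all 14 MOR–SAL libraries were above the SAL–SAL median. The log2FC was 1.31 (SE 0.26, edgeR adjusted p = 0.00314) and was 1.23 without litter 10 (edgeR adjusted p = 0.0259). Necab1, a neuronal calcium-binding protein, was at 23.9 to 75.1 (median 46.2) in MOR–SAL and 13.6 to 37.9 (median 18.8) in SAL–SAL. Its log2FC was 1.08 (SE 0.24, edgeR adjusted p = 0.00756). Trdmt1, Synpr and Necab1 were the only 3 higher genes that were called with each of the 17 litters left out in turn, and the call of Necab1 was lost in limma-voom with a litter correlation (adjusted p = 0.0793) and without one (limma-voom adjusted p = 0.0870). Exons of the antisense gene Gm11837 overlap Necab1 on the opposite strand, and whether counting used the strand is not given in the sources used here.

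The other leading higher genes passed the test with all litters and not without litter 10. Smyd3, a lysine methyltransferase, had a median of 109.7 normalized CPM with morphine and of 63.6 without (log2FC 0.75, SE 0.17, edgeR adjusted p = 0.00882). Its edgeR adjusted p was 0.117 without litter 10. Likewise Eogt, which adds O-GlcNAc to extracellular proteins (log2FC 0.97), Cystm1, a small membrane protein (1.02), Prkg1, the cGMP-dependent protein kinase (1.01), and Fndc3a, a fibronectin-domain protein (0.71), had edgeR adjusted p of 0.0102 to 0.0113 or, for Eogt, of 0.00882. Without litter 10 these 4 ran from 0.0548 to 0.140. The largest higher changes among called genes of at least 20 CPM after Synpr were those of Syt6, a synaptotagmin (log2FC 1.27, edgeR adjusted p = 0.0344), Cfap54, a protein of cilia (1.22, 0.0179), and Nhp2l1, a protein of small ribonucleoproteins (1.16, 0.0429). Syt6 and Nhp2l1 lost the call without MOR–SAL 12-1 and 15-0 (edgeR adjusted p = 0.0660 and 0.0762).

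Among the lower genes, Sh3d19 had the smallest adjusted p. It encodes an adaptor with SH3 domains and lies on the plus strand at chr3:85971109-86130526. Its values were 13.9 to 62.1 normalized CPM (median 21.5) in MOR–SAL and 20.5 to 386 (median 74.6) in SAL–SAL, and the SAL–SAL range was set by library 10-1 at 386 and library 10-3 at 181. None of the 14 MOR–SAL libraries reached the SAL–SAL median. The log2FC was −2.06 (SE 0.28, edgeR adjusted p = 1.55e-05), and without litter 10 it was −1.38 (edgeR adjusted p = 0.00638).

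Fryl, a large protein related to the furry scaffold of neurite growth (minus strand, chr5:73019987-73256619), was at 152 to 248 normalized CPM (median 199) in MOR–SAL and 154 to 1652 (median 393) in SAL–SAL. The MOR–SAL libraries were close together and the SAL–SAL libraries spread upwards from the same floor. The log2FC was −1.52 (SE 0.22, edgeR adjusted p = 3.97e-05) and was −0.86 without litter 10 (edgeR adjusted p = 0.0188). Clmn, a membrane protein with actin-binding domains, ran from 32.3 to 134 (median 54.3) in MOR–SAL and from 65.3 to 734 (median 206) in SAL–SAL. Its log2FC was −1.96 (SE 0.28, edgeR adjusted p = 4.28e-05). Map7d1, a microtubule-associated protein, was not spread in the same way, with 45.8 to 109 (median 59.6) in MOR–SAL and 84.5 to 192 (median 125) in SAL–SAL. Its log2FC was −1.02 (SE 0.16, edgeR adjusted p = 0.000104) and was −0.85 without litter 10 (edgeR adjusted p = 0.00753). Synj2, a phosphoinositide phosphatase of vesicle recycling, had medians of 38.3 and 120.4 (log2FC −1.48, SE 0.24, edgeR adjusted p = 0.000148). Peak1, a pseudokinase of the cytoskeleton (log2FC −1.83), Kctd17, an adaptor of ubiquitin ligases (−1.95), and Arap2, a regulator of Arf GTPases (−2.12), also stayed called with each litter left out. In limma-voom with a litter correlation Peak1 was called (adjusted p = 0.0414), and Kctd17 and Arap2 were not (limma-voom adjusted p = 0.123 and 0.0543). Without litter 10 the log2FC of Peak1 was −0.91, and with the thalamus marker covariate described further on Peak1 and Kctd17 were not called (−0.78 and −0.85, edgeR adjusted p = 0.108 and 0.149), while Arap2 was (−1.64, edgeR adjusted p = 0.0184).

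**Figure D2:**
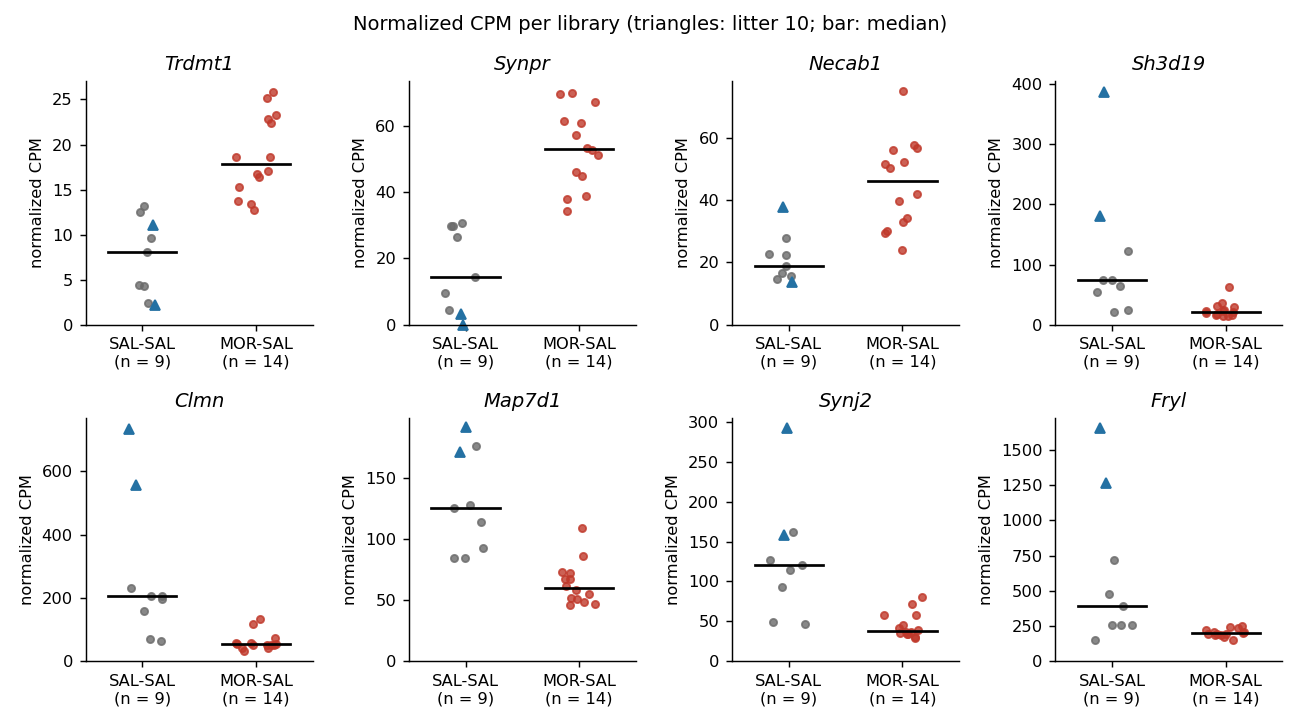
Normalized CPM (y axis, from 0) of 8 genes in each of the 9 SAL–SAL and 14 MOR–SAL libraries, 1 point per library, with litter 10 as triangles and the group median as a bar. Synpr separates the groups, Trdmt1 and Necab1 overlap slightly, and for Sh3d19, Clmn and Fryl the litter 10 libraries are the highest while the MOR–SAL libraries lie close together.

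Sh3d19, Fryl, Clmn, Synpr and Trdmt1 were called with each litter left out and in limma-voom with a litter correlation, and their promoters are shown for that reason. Fryl was not called with that covariate (log2FC −0.67, edgeR adjusted p = 0.104). Each is the 250 bases before a RefSeq start on GRCm38.p6, written 5′ to 3′ on the gene's own strand, and Synpr has 2 starts. Capitals mark matches on either strand to the letters AGGTCA (a site of ROR and other nuclear receptors), TGACGTCA (the cAMP response element), GGGCGG (the GC box) and CCAAT (the CCAAT box).

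Trdmt1 (chr2:13544665-13544914, minus strand): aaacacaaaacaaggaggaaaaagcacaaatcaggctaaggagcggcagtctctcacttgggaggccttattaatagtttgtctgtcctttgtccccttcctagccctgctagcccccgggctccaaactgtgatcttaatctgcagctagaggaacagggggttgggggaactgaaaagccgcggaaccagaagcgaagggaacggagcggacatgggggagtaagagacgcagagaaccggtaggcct
Synpr (chr14:13284530-13284779, plus strand): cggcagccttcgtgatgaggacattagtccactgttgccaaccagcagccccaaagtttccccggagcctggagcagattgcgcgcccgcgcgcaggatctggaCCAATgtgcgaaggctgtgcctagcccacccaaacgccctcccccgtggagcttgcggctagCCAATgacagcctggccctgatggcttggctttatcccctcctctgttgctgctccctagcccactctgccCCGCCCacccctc
Synpr (chr14:13453708-13453957, plus strand): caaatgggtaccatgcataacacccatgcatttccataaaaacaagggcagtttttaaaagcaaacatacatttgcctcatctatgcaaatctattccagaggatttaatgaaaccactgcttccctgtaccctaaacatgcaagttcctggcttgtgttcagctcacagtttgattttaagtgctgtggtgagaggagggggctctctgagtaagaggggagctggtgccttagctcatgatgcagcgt
Sh3d19 (chr3:85970868-85971117, plus strand): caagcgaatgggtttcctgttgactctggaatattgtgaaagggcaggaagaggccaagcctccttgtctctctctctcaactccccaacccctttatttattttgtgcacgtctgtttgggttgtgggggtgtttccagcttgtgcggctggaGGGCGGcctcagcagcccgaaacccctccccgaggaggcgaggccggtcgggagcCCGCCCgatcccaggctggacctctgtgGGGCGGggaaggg
Fryl (chr5:73256619-73256868, minus strand): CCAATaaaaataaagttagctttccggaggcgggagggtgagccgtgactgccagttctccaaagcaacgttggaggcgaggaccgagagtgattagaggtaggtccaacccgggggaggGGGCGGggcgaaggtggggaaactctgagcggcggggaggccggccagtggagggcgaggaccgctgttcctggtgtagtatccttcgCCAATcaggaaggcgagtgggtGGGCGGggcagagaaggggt
Clmn (chr12:104865077-104865326, minus strand): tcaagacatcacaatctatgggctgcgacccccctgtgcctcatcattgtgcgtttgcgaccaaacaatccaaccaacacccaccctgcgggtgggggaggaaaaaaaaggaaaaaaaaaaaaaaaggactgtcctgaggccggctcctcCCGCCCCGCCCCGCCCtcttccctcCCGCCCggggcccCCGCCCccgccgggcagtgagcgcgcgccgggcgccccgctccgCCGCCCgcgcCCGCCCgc

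Trdmt1 and the second Synpr start held none of the 4 motifs, Clmn held 7 GC boxes, Sh3d19 held 3 and Fryl held 2. A GC box was in 58.8% of the promoters of lower genes, 56.4% of those of higher genes and 54.1% of those of all described genes. The site AGGTCA was in 7.64%, 7.27% and 10.9%, and the CCAAT box in 32.2%, 34.5% and 34.4%. The promoter table matched 203 of the 310 lower genes (301 promoters), 36 of the 51 higher genes (55 promoters) and 11345 described genes (14569 promoters). The cAMP response element was in 3 of the 301 promoters of lower genes and in 0 of the 55 of higher genes, against 2.42% of the promoters of described genes.

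The number of called genes depended on single litters. A litter was left out with all its libraries, so leaving out litter 10 also took SAL–LPS 10-0, 10-2 and 10-4 (animals injected with lipopolysaccharide) out of the fit. The SAL–SAL libraries of litter 10 are 10-1 and 10-3. For 244 of the 310 lower genes (78.7%) the highest SAL–SAL value was in one of these 2 libraries, 166 in 10-1 and 78 in 10-3, against 30.9% of all described genes. Without litter 10, 78 lower and 3 higher genes were called (0.436% of described genes), of which 58 and 3 were among the 310 and 51. Leaving out litter 1 (SAL–SAL 1-3 with SAL–LPS 1-0 and 1-2) gave 493 lower and 158 higher, against 461 and 151 without library SAL–SAL 1-3 alone. Leaving out litter 15, a morphine-exposed litter, gave 128 and 16. In all, 32 of the 310 lower and 3 of the 51 higher genes were called in each of the 17 fits without a litter. In limma-voom with a correlation between animals of a litter, estimated at −0.0226, 0.382% of described genes were called, among them 37 of the 310 and 15 of the 51. In limma-voom with no such correlation, added once the values were known, 0.285% were called, among them 29 and 13, each of which was also called with the correlation. Of the 57 called genes examined by name, 18 kept the call in limma-voom with the correlation and 17 without it. Both conditions, each litter left out and limma-voom with the correlation, were met by 15 lower and 2 higher genes, of which 7 and 2 were also called with the thalamus marker covariate. The 15 lower genes were Sh3d19, Fryl, Clmn, Peak1, Map7d1, Synj2, Lhfp, Fam53b, Pdp1, Tspan11, Cnksr3, Ndrg2, Ccdc141, Fzd6 and Lats2, and the 2 higher genes were Trdmt1 and Synpr. Without MOR–SAL 12-1 and 15-0, a setting added once the values were known, 193 of the 310 and 19 of the 51 were called. Among genes described further on, Prkar1b, Grin2b, Syn3, Il6ra, Ccl5, Klf9, Cacna1c and Lama5 lost the call in that setting (edgeR adjusted p of 0.0533 to 0.0633).

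**Figure D3:**
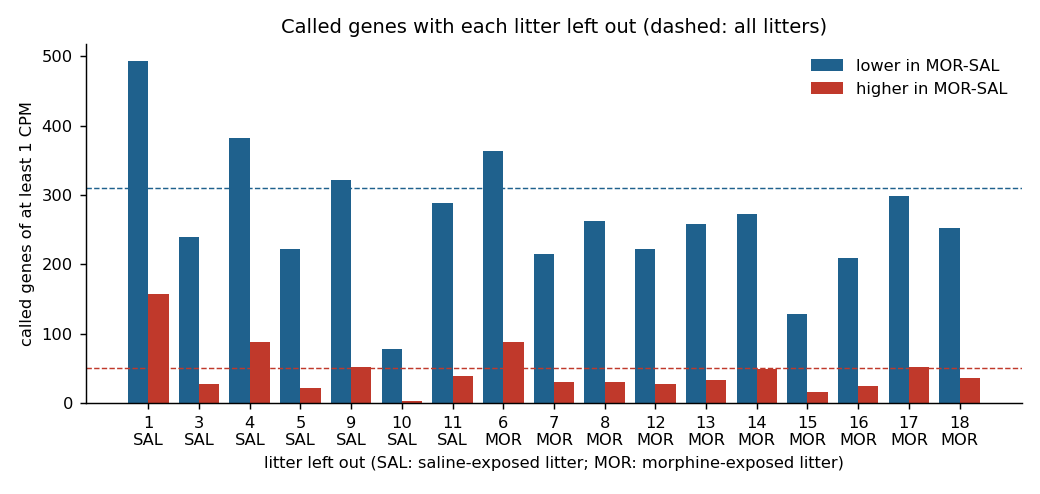
Number of called genes of at least 1 CPM (y axis) when each litter is left out (x axis, saline-exposed litters first), in blue for genes lower and in red for genes higher in MOR–SAL, with dashed lines at the 310 and 51 of all litters. The count of lower genes is smallest without litter 10 (78) and largest without litter 1 (493).

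Markers of neighbouring tissue and of glia differed between the groups. Of 16 thalamus marker genes, 9 fell and none rose, where 1.67% of all described genes fell, and their median log2FC was −1.57. Without MOR–SAL 12-1 and 15-0, 7 of the 16 fell. Prkcd, protein kinase C delta, was at 0.528 to 117 normalized CPM (median 15.8) in MOR–SAL and 7.70 to 1522 (median 307) in SAL–SAL. Its log2FC was −4.42 (SE 0.66, edgeR adjusted p = 6.41e-05). The 5 highest SAL–SAL libraries, 10-1, 10-3, 5-3, 3-2 and 11-1, were above every MOR–SAL library. Plekhg1, a guanine nucleotide exchange factor, had medians of 21.2 and 252 (log2FC −3.49, SE 0.56, edgeR adjusted p = 0.000150). Adarb1, an RNA-editing adenosine deaminase (log2FC −1.42), and Rora, a nuclear receptor of the clock (−1.44), fell with adjusted p of 0.000908 and 0.00114 in edgeR. Ptpn3, Tnnt1, Ntng1, Synpo2 and Lef1 also fell. Adarb1 was not called without litter 10 (edgeR adjusted p = 0.171). The relay marker Tcf7l2 had a log2FC of −1.27 (SE 0.51, edgeR adjusted p = 0.154).

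Summed over the 16 genes, thalamus markers ran from 666 to 2195 normalized CPM (median 838) in MOR–SAL and from 649 to 8913 (median 2247) in SAL–SAL, with 10-1 at 8913 and 10-3 at 7286. These are the libraries in which most lower genes had their SAL–SAL maximum. Without litter 10, 2 thalamus markers were called, and in limma-voom with the litter correlation 1 of the 16 was (median log2FC −1.43), where Prkcd had an adjusted p of 0.196. In an edgeR fit with the mean log2 level of the thalamus markers as a covariate 89 described genes were called (0.479%), 45 of them among the 310 lower and 4 among the 51 higher. Among the latter were Trdmt1, Synpr and Necab1. Of the 57 called genes examined by name, 14 kept the call. Prkcd lost its call in that fit, where its own level enters the covariate (edgeR adjusted p = 0.197). In bulk samples, fewer cells of a type and less RNA per cell cannot be told apart.

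Oligodendrocyte markers were low in most libraries and high in a pair of SAL–SAL libraries. Their sum over 12 genes ran from 79.1 to 649 normalized CPM (median 345) in MOR–SAL and from 108 to 7111 (median 365) in SAL–SAL, where library 4-1 was at 7111 and library 9-4 at 5330. Mobp, a myelin protein, was at 2.95 to 39.6 (median 19.2) in MOR–SAL and 8.77 to 683 (median 36.5) in SAL–SAL (log2FC −2.39, SE 0.49, edgeR adjusted p = 0.00425). Mal, another myelin protein, fell as well (log2FC −2.13, edgeR adjusted p = 0.0283), 2 of the 12 markers in all, where 1.67% of all described genes fell. Without litter 10 the number of oligodendrocyte markers that fell was 6, and without SAL–SAL 10-1, 10-3, 4-1 and 9-4 it was 0 of 12. Mal lost its call without MOR–SAL 12-1 and 15-0 (edgeR adjusted p = 0.0689).

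Against the 1.67% of all described genes that fell, 1 of 9 astrocyte markers did, Slc1a2. It encodes the main glutamate transporter and was at 60.5 to 181 (median 84.9) in MOR–SAL and 66.1 to 461 (median 244) in SAL–SAL (log2FC −1.39, SE 0.26, edgeR adjusted p = 0.00124). Of 8 microglia markers, Csf1r, the receptor of colony stimulating factor, fell (log2FC −1.68, edgeR adjusted p = 0.0484) and was not called without MOR–SAL 12-1 and 15-0 (edgeR adjusted p = 0.0846). Slc1a2 and Csf1r were not called without SAL–SAL 10-1, 10-3, 4-1 and 9-4 (edgeR adjusted p = 0.231 and 0.337). Of 7 choroid plexus markers, Ttr, the thyroxine carrier transthyretin, fell. It was at 0 to 2.89 normalized CPM (median 0.785) in MOR–SAL, where 5 of 14 libraries had no count, and at 0 to 223 (median 3.71) in SAL–SAL. Libraries 3-2, 11-1, 1-3 and 4-1 had 78.6 to 223 and the other 5 at most 3.71, so the SAL–SAL libraries fell into separate levels. The log2FC was −6.25 (SE 1.00, edgeR adjusted p = 0.000150), and the limma-voom adjusted p was 0.275 with the litter correlation and 0.282 without it. The other choroid plexus markers went in both directions. Folr1 had no count in 13 of 14 MOR–SAL and 4 of 9 SAL–SAL libraries, whereas Kl had none in 1 and 4. Clic6 had no count in 0 MOR–SAL and 3 SAL–SAL libraries, at medians of 3.00 and 1.47 CPM.

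Of the 12 neuron markers, Elavl3, an RNA-binding protein of neurons, fell (log2FC −0.61, SE 0.15, edgeR adjusted p = 0.0214), where 1.67% of all described genes fell. Elavl3 was not called without litter 10 (−0.56, edgeR adjusted p = 0.111), and DESeq2 called 1 neuron marker higher and 1 lower. The neuron markers summed to 2553 to 3471 normalized CPM in MOR–SAL and to 2436 to 3614 in SAL–SAL, so the groups overlapped fully. None of the 8 cortex and hippocampus, 7 striatum, 5 endothelial and pericyte or 4 ependyma and tanycyte markers described was called by edgeR with TMM factors and all 23 libraries. Of these, 3, 1, 0 and 0 had an unadjusted p under 0.05, and by DESeq2 1, 0, 0 and 0 were called. The smallest p among them were those of Rasgrf2 (log2FC 0.69) and Slc17a7 (−1.88), Rgs9 (0.97) and Drd1 (1.03), Pdgfrb (−0.84) and Tek (−0.27), and Foxj1 (−1.30) and Vim (1.07), with edgeR adjusted p from 0.0505 to 0.655. Without MOR–SAL 12-1 and 15-0 edgeR called 1 of the 8 cortex and hippocampus markers lower, and with library size only it called 1 higher. Those 2 libraries had striatum marker sums of 412 and 360 normalized CPM, against a MOR–SAL median of 175. The part of these populations in the called genes was not tested.

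**Figure D4:**
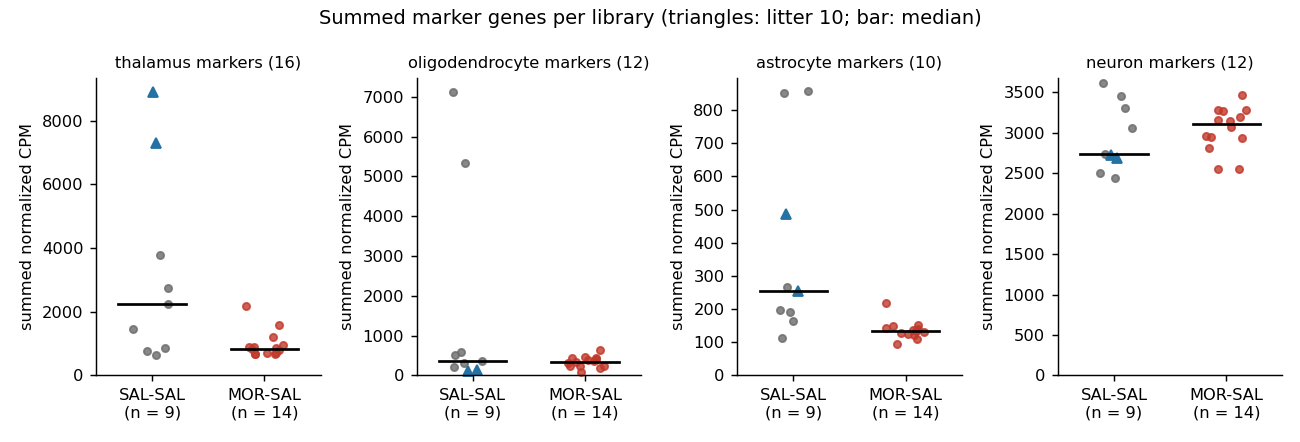
Summed normalized CPM (y axis, from 0) of thalamus, oligodendrocyte, astrocyte and neuron marker genes in each of the 9 SAL–SAL and 14 MOR–SAL libraries, with litter 10 as triangles and the group median as a bar. Thalamus markers are highest in litter 10 and oligodendrocyte markers in 2 other SAL–SAL libraries, while neuron markers overlap between the groups.

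The glutamate receptor, GABA-A receptor and scaffold genes called in edgeR with TMM factors fell, where 1.94% of all described genes were called. Among 25 glutamate receptor subunit genes, Grin2c and Grin2b were among the 3 that fell, none rose, and the median log2FC was −0.0034. Grin2c, an NMDA receptor subunit found in the thalamus and in glia, was at 0 to 18.1 normalized CPM (median 2.83) in MOR–SAL and 0.356 to 278 (median 35.4) in SAL–SAL, with 10-1 at 209 and 10-3 at 278. Its log2FC was −3.79 (SE 0.61, edgeR adjusted p = 0.000150) and was −2.60 without litter 10 (edgeR adjusted p = 0.0268). In limma-voom, with or without the litter correlation, none of the 25 was called. Grin2b, another NMDA subunit (log2FC −0.78, edgeR adjusted p = 0.0494), was not called without litter 10 (edgeR adjusted p = 0.626). With the thalamus marker covariate none of the 25 was called, and Grin2c and Grin2b had log2FC of −2.62 and −0.18 (edgeR adjusted p = 0.0617 and 0.865). Thalamus marker sums, at medians of 838 in MOR–SAL and 2247 in SAL–SAL, moved in the direction of these genes, and their part was not tested. The gene Gm25837, annotated as a miRNA, lies opposite an exon of Grin2c.

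Of 15 GABA-A receptor subunits, Gabrd (log2FC −2.79, SE 0.70, edgeR adjusted p = 0.0227) and Gabra4 (−1.50, SE 0.38, edgeR adjusted p = 0.0264), both of extrasynaptic receptors, fell, whereas the median over the 15 was 0.44. Over all described genes 1.67% fell and 0.274% rose. With DESeq2 2 subunits rose and 2 fell, and with library size only 2 rose and 1 fell. Neither was called without litter 10 (edgeR adjusted p = 0.265 and 0.527), and with the thalamus marker covariate their log2FC were −0.37 and 0.02 (edgeR adjusted p = 0.941 and 1). Of 31 postsynaptic scaffold genes, Homer2 (log2FC −1.81, edgeR adjusted p = 0.000539) and Dlgap4 (−0.85, edgeR adjusted p = 0.00283) fell and none rose. Of 35 synaptic vesicle genes, Synpr and Syn3, a synapsin (log2FC 0.61, SE 0.17, edgeR adjusted p = 0.0398), rose and none fell. Among 66 potassium channel genes, Kcnq3 (−0.99) and Kcnc2 (−1.10) fell with edgeR adjusted p of 0.00610 and 0.0133, and of 27 calcium and sodium channel genes Cacna1c fell (−0.92, edgeR adjusted p = 0.0283). Without litter 10 the log2FC of Cacna1c was −0.09 (edgeR adjusted p = 0.928), and Homer2, Dlgap4, Syn3, Kcnq3 and Kcnc2 were not called (edgeR adjusted p of 0.111 to 0.509). None of these 6 was called with the thalamus marker covariate either (edgeR adjusted p of 0.234 to 0.972).

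Neuropeptides and transcription factors that define hypothalamic neurons were measured next. None of 26 neuropeptide genes passed the test in edgeR or in DESeq2, where 1.94% of described genes were called in edgeR, and 5 had an unadjusted p under 0.05. Their median log2FC was 0.65, and 21 of 26 were positive, against 9749 of 18582 described genes. Without litter 10 the median was 0.39, and with the thalamus marker covariate it was 0.23, with 16 of 26 positive. Thalamus marker sums moved the other way (medians of 838 and 2247), and their part was not tested. Summed, neuropeptide genes ran from 206 to 648 normalized CPM (median 442) in MOR–SAL and from 80.4 to 484 (median 257) in SAL–SAL. Bdnf, a growth factor of neurons, had medians of 23.9 and 13.3 (log2FC 0.79, SE 0.32, edgeR adjusted p = 0.163), and Pdyn, the precursor of dynorphin, had medians of 26.4 and 15.6 (1.29, SE 0.57, edgeR adjusted p = 0.203). None of 22 hypothalamic transcription factor genes was called in edgeR or DESeq2 (3 at an unadjusted p under 0.05; median log2FC 0.33). Tbx3 and Six6, with the smallest p among them, had medians of 1.68 and 1.40 normalized CPM with morphine, and SAL–SAL medians of 0 (edgeR adjusted p = 0.111 and 0.153).

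The opioid system was measured through 4 receptors and 4 peptide precursors. All 8 had a positive log2FC, as had 9749 of 18582 described genes, and their median was 0.72. None was called by edgeR (4 at an unadjusted p under 0.05, 1 called by DESeq2), where 1.94% of described genes were called. Oprl1, the nociceptin receptor, was nearest the threshold, with 99.9 to 159 normalized CPM (median 129.8) in MOR–SAL and 14.8 to 122 (median 76.4) in SAL–SAL (log2FC 0.76, SE 0.22, edgeR adjusted p = 0.0503). Oprk1, the kappa receptor, had medians of 59.1 and 39.1 (0.71, SE 0.31, edgeR adjusted p = 0.191). Oprm1, the mu receptor, had a log2FC of 0.33 (SE 0.22, edgeR adjusted p = 0.463). Both without litter 10 and with the thalamus marker covariate the median of the 8 was 0.46, with 6 positive. In the contrast of MOR–LPS with SAL–LPS described further on, all 8 were negative (median −0.78). In edgeR 0.274% of all described genes rose and 1.67% fell. Of 41 genes of the cAMP pathway, Prkar1b, a regulatory subunit of protein kinase A, rose (log2FC 0.63, SE 0.16, edgeR adjusted p = 0.0293) and none fell, while DESeq2 called 2 higher and 1 lower. Prkar1b was not called without litter 10 (edgeR adjusted p = 0.209). Adrbk2, the older symbol of a receptor kinase that the list held under its present name, was picked out after its values were seen and fell (log2FC −0.85, edgeR adjusted p = 0.00564; 0.212 without litter 10). Of 35 receptors of hormones and of energy balance, Igf1r, the receptor of insulin-like growth factor, fell (log2FC −0.94, SE 0.23, edgeR adjusted p = 0.0215) and none rose in edgeR, while DESeq2 called 1 higher and 3 lower. Without litter 10 the edgeR adjusted p of Igf1r was 0.420.

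Of 34 cytokine signalling and inflammation genes, Il1rap and Il6ra fell and Ccl5 rose, where 1.94% of all described genes were called. The median log2FC of the 34 was −0.13. Il1rap, the shared subunit of the interleukin-1 receptor, was at 35.6 to 88.2 normalized CPM (median 49.4) in MOR–SAL and 36.5 to 435 (median 97.7) in SAL–SAL, where 10-1 was at 435 (log2FC −1.34, SE 0.27, edgeR adjusted p = 0.00309). Il6ra, the receptor of interleukin-6, was low in both groups, at 0 to 0.932 (median 0.192) and 0 to 6.52 (median 2.78) and an edgeR adjusted p of 0.0300 (log2FC −3.08, SE 0.81). The chemokine Ccl5 had medians of 3.48 and 1.09 (log2FC 2.31, SE 0.66, edgeR adjusted p = 0.0484). None of the 3 was called without litter 10 (edgeR adjusted p = 0.178, 0.0769 and 0.180) or with the thalamus marker covariate (0.464, 0.0793 and 0.111).

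Of 7 immune genes that the study's text names, all had a negative log2FC. Arid5a, an RNA-binding regulator of interleukin-6 transcripts (log2FC −1.50, SE 0.32, edgeR adjusted p = 0.00564), and Il6ra fell, while Gadd45g, Otud5, Sbno2, Src and Ncor1 had values of −0.76 to −0.31 and edgeR adjusted p of 0.0721 to 0.130. Without litter 10 none of the 7 was called (Arid5a −0.81, edgeR adjusted p = 0.238), and with DESeq2 5 of the 7 fell. The study chose these genes on these samples, so their direction is not independent evidence. Of the 4 neuronal and metabolic genes it names, Grin2c, Fryl and Lamb1 fell, and Ldha, lactate dehydrogenase A, had medians of 151 and 70.5 (log2FC 0.78, SE 0.25, edgeR adjusted p = 0.0832). Lamb1, a laminin chain, had medians of 17.1 in MOR–SAL and 52.5 in SAL–SAL, where it reached 162 (log2FC −1.82, SE 0.33, edgeR adjusted p = 0.000908), and had an edgeR adjusted p of 0.0592 without litter 10 and of 0.359 with the thalamus marker covariate. Of 52 laminin and collagen genes it and Lama5 fell (log2FC of Lama5 −1.05, edgeR adjusted p = 0.0295, and 0.244 without litter 10) and none rose in edgeR. DESeq2 called 2 higher and 2 lower. Over all described genes 1.67% fell in edgeR.

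None of 28 genes of glycolysis and pyruvate use was called by edgeR (5 at an unadjusted p under 0.05, 1 called by DESeq2), with a median log2FC of 0.19 and Pfkl, a phosphofructokinase, nearest beside Ldha (0.44, edgeR adjusted p = 0.0686). None of 77 respiratory chain genes was called by edgeR (13 at an unadjusted p under 0.05, 1 called by DESeq2; median 0.28). Sdha (0.49, edgeR adjusted p = 0.0873) and Ndufa10 (−0.44, edgeR adjusted p = 0.101) had the smallest p. Of 44 genes of phospholipid and lipid metabolism, Dgkz, a diacylglycerol kinase, fell (log2FC −0.93, SE 0.20, edgeR adjusted p = 0.00544) and none rose, where 1.67% of all described genes fell. Dgkz was not called without litter 10 (−0.52, edgeR adjusted p = 0.202). Of 83 ribosomal protein genes, Rps15a (0.82), Rps16 (1.70) and Rpl3 (0.71) rose, with edgeR adjusted p of 0.0317 to 0.0484. Over all described genes 0.274% rose. The median over the 83 was 0.49, and 77 were positive, against 9749 of the 18582 described genes. Members of this family have many processed copies, between which reads could be split, and none of the 3 was called without MOR–SAL 12-1 and 15-0 (edgeR adjusted p of 0.0764 to 0.0887) or without litter 10 (0.187 to 0.292).

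Clock and stress genes were counted against the 1.67% of described genes that fell. Of 23 circadian clock genes, Rora and Ciart, a repressor of the clock (log2FC −0.96, SE 0.23, edgeR adjusted p = 0.0179), fell, and the median was −0.24. Of 13 glucocorticoid response genes, Klf9, a transcription factor, fell (log2FC −0.79, SE 0.23, edgeR adjusted p = 0.0486), with a median of −0.51. None of 20 immediate early genes was called by edgeR or DESeq2 (1 at an unadjusted p under 0.05). Junb (0.92) and Jun (−0.64), both subunits of the AP-1 factor, had the smallest p, with edgeR adjusted p of 0.163 and 0.278. Rora, Ciart and Klf9 were not called without litter 10 (edgeR adjusted p of 0.123 to 0.208). Rora is also among the 16 thalamus markers, and with their covariate its log2FC was −0.30 (edgeR adjusted p = 0.739) and no clock or glucocorticoid response gene was called.

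The same exposure contrast in adults injected with lipopolysaccharide (LPS, a bacterial cell wall component), MOR–LPS (14 libraries) over SAL–LPS (11 libraries), shares litters but no library with the baseline contrast. It called 24 described genes (0.129%). Female-labelled SAL–LPS 10-0 had 97.9 CPM summed over the 4 Y-linked genes, with Xist at 498 CPM. MOR–LPS 18-1 and SAL–LPS 9-3, also labelled female, had Y-linked sums of 0.258 and 0 CPM and Xist at 0.515 and 78.6 CPM. These libraries were also in the fit that the baseline contrast shares, and the LPS contrast was not refitted without them. The 310 lower genes had a median log2FC of 0.11 there, the 51 higher genes −0.02 and all described genes −0.01. The sign was the same in both contrasts for 124 of the 310 (40.0%) and 24 of the 51 (47.1%), against 48.6% of all described genes. Of the 361, Slc1a2 and the lncRNA gene Gm26512 were called in both, in opposite directions. Slc1a2 rose in MOR–LPS (log2FC 1.23, SE 0.26, edgeR adjusted p = 0.0409). Of the 9 astrocyte markers 8 were positive in that contrast (median 1.23), and their sum ran from 129 to 2173 normalized CPM (median 679) in MOR–LPS and from 102 to 776 (median 259) in SAL–LPS. Their part in the change of Slc1a2 was not tested. Trdmt1 and Synpr had log2FC of −0.16 (SE 0.24) and 0.34 (SE 0.34) after LPS, and Sh3d19 and Fryl had −0.10 (SE 0.26) and 0.09 (SE 0.21). Prkcd had −0.19 (SE 0.59), with thalamus marker sums of 542 to 1625 normalized CPM in MOR–LPS and 521 to 2135 in SAL–LPS. A test of the difference between the 2 contrasts, chosen after the values were seen, called 432 of the 18582 described genes (2.32%). Among them were 167 of the 310 and 18 of the 51. That test contains the values that chose the 361 genes, so the count among them is a description.

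**Figure D5:**
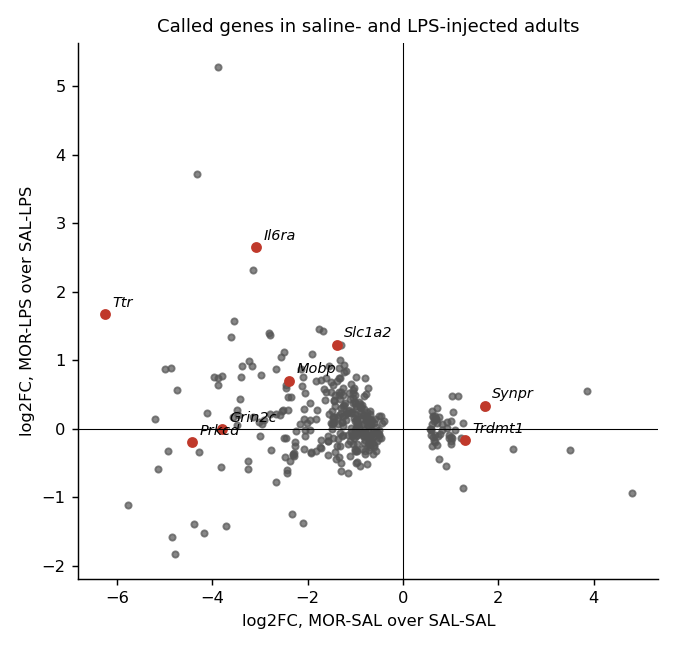
The log2FC of MOR–SAL over SAL–SAL (x axis) against that of MOR–LPS over SAL–LPS (y axis) for the 361 called genes, with a few named in red. The lower genes spread to both sides of 0 on the y axis, with the same sign in 124 of 310.

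An interaction of exposure with sex was tested over all genes. It called 3 genes in edgeR, Hif3a, Slc39a10 and Ssfa2, none of them among the 361, and 3419 passed 0.05 before adjustment. In females alone 441 lower and 161 higher genes were called, and in males alone 5 and 0 (519 described genes higher at an unadjusted p under 0.05). The 4 female SAL–SAL libraries were 10-1 and 10-3, with the highest thalamus marker sums, and 4-1 and 9-4, with the highest oligodendrocyte marker sums. Thalamus markers summed to 845 and 754 normalized CPM in 4-1 and 9-4, and oligodendrocyte markers to 146 and 108 in 10-1 and 10-3.

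The called genes had longer spans than the described genes. The genomic span was known for 279 of the 310 lower and 49 of the 51 higher genes, with medians of 58508 and 54304 bases, and for 92.0% of described genes, with a median of 18972.5. Medians of summed exon length were 6166, 5121 and 3847.5 bases. Of the matched genes, 95.0% of the lower, 95.9% of the higher and 78.4% of all described were protein coding.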

How the data were processed

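Nuclear RNA of NeuN+ nuclei was read from the deposited hypothalamic table of raw counts for 46403 genes in 51 libraries. Per the labels and the study's methods, the authors trimmed reads with Trim Galore 0.6.7, aligned them to mm10 with STAR 2.7.10a, counted reads per gene (HTSeq 0.12.4 is also named) and used DESeq2 1.40.2. The counts carry no molecular identifiers. Libraries with a total under 0.5 of the median (5543589) were left out, 3 in all. The counts of the other 48 libraries were fitted in edgeR 4.0.16 (R 4.3.3) with 4 conditions and sex as terms, TMM factors and genes with a total above 10 (estimateDisp, glmQLFit, glmQLFTest), and p-values were adjusted by the Benjamini-Hochberg method. Animals of 1 litter are not independent, and p-values measure the spread between these libraries. Alternatives used DESeq2 1.42.0 and limma 3.58.1. The tests were checked on simulated counts drawn independently for each library. These held no litter effect and no difference in tissue or cell make-up, so the check does not cover those features. Positions are from GENCODE M21 (41961 symbols matched), promoters from RefSeq. Members and lists were chosen with earlier results of these data known. Named genes were, among called genes, the 8 first by adjusted p, the 4 largest changes at 20 CPM or more and up to 6 stable calls in each direction, called list members (up to 4 per list, otherwise the 2 smallest p) and genes the study names. A count of 0 allows up to 3 counts of a library's total. Other tables of the series were not used here. Results for a few genes and 1 gene list are not reported here.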

Additional observations from a re-analysis of the deposited data

Results flagged for a closer look

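In SAL–SAL (n = 9), 1 library stood apart from the other 8 for 4 of the 57 called genes examined, by Dixon's criterion at 95% (the gap to the nearest library as a share of the whole range). Chance alone gives such a gap in about 1 in 20 groups. Sh3d19 was at 386 normalized CPM in library 10-1 and at 181 in the next library. Il1rap was at 435 in 10-1 against 189, and Synj2 at 292 in 10-1 against 162. Elavl3 was at 60.9 in library 1-3, the lowest value, with 141 next. Without litter 10, Sh3d19 and Synj2 were still called and Il1rap and Elavl3 were not (edgeR adjusted p = 0.178 and 0.111).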

How the results depend on the processing

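For the count of all called genes (544), the values were 356 with filterByExpr, 354 with library size only, 835 with the 2 groups alone, 853 with no sex term, 5 in males alone, 78 in limma-voom with a litter correlation, 183 on litter sums and 276 with the thalamus marker covariate. For higher genes (51) they were 138 with DESeq2, 109 with library size only, 151 with the 2 groups alone, 161 in females alone, 0 in males alone, 30 in limma-voom with the correlation, 20 on litter sums and 4 with the covariate. For lower genes (310) they were 558 with DESeq2, 123 with library size only, 182 with all libraries kept, 550 with the 2 groups alone, 5 in males alone, 41 in limma-voom with the correlation, 134 on litter sums and 85 with the covariate. The next settings were chosen after seeing the data. Without SAL–SAL 10-1, 10-3, 4-1 and 9-4 the counts were 100, 2 and 34 (all, higher, lower), and without MOR–SAL 12-1 and 15-0 they were 318, 19 and 198. In limma-voom without a litter correlation they were 58, 21 and 32, and 160 in the LPS contrast. The test between the sexes gave 65 genes with DESeq2, 5 with filterByExpr and 0 with all libraries kept (3391 at an unadjusted p under 0.05). The LPS contrast gave 4 with filterByExpr, 298 with all libraries kept and 178 in limma-voom with the correlation, against 66.

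Leaving out 1 litter in turn gave 145 to 874 called genes in all, 3 to 158 higher and 78 to 493 lower, and leaving out 1 library 265 to 826, 9 to 151 and 139 to 461. The count of lower genes moved by over 1.5 times without litter 1, 10 or 15 and without library SAL–SAL 10-1, 10-3 or 5-3 (190) or MOR–SAL 15-2 (204). Of 57 called named genes, 57 kept direction and call with DESeq2, 18 in limma-voom with the correlation, 17 without it and 3 in males alone. With the thalamus marker covariate Gabra4 (log2FC 0.0196) and Kcnc2 (0.0633) changed sign. Slc17a7, not called, had 0.0261 without SAL–SAL 10-1, 10-3, 4-1 and 9-4. The cause was not tested. No paired analysis was possible because a replicate number names a litter and an animal and no litter held both exposures. With 7 saline litters, and 9 libraries of 3128218 to 9052588 counts, changes in genes near 1 CPM rest on few counts.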
